A study of Mus musculus with 121 samples.

Results

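A set of 32 genes known from astrocytes and reactive astrocytes was followed through brain RNA-seq of mice carrying a conditional allele that raises Gdnf. The 32 symbols came from a hand-set list that was drawn up with earlier results of these data known, and all 32 were found among the 24412 genes of the count table. Each of the 32 passed the filter on low counts in every comparison. The series holds 121 libraries of male mice from 2 models, 3 regions and 3 genotypes, and asks what more endogenous GDNF, a secreted growth factor of dopamine neurons, does to gene expression in prefrontal cortex (PFC), striatum (STR) and substantia nigra (SN).

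In the Nestin-Cre model (21 mice) the allele meets Cre under the Nestin promoter of neural progenitors, and the mice were untreated and 2 months old. In the AAV-Cre model (22 mice) Cre came from an AAV injected into both striata at 3 to 5 months, and the mice were 5 to 7 months old. Genotypes are wt/wt littermates (WT), wt/cKU (HET) and cKU/cKU (HOM), where cKU is the name the labels give the allele. The labels do not say whether the Nestin-Cre WT mice carry Cre, while the paper writes its controls as wt/wt with Nestin-Cre. All mice share a mixed 129Ola/ICR/C57bl6 background. All 3 AAV-Cre genotypes, WT included, received the injection, and no uninjected group of that age was analysed here. The Nestin-Cre groups hold 8, 6 and 4 libraries (WT, HET and HOM) in PFC and 6, 7 and 6 in both STR and SN. The AAV-Cre groups hold 7, 7 and 8 libraries in PFC and SN, and 7 of each genotype in STR. The labels of mouse M4575 conflict, with WT for PFC and HOM for STR and SN, and each library kept its own label. The models differ in age, injection, Cre source and library set at once, so these cannot be told apart in any comparison between models.

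Astrocytes are glia that buffer potassium and water, clear glutamate and GABA from the synapse, couple to each other through gap junctions and supply neurons with metabolites. After injury or inflammation they become reactive, a state in which the intermediate filament genes Gfap and Vim and the secreted protease inhibitor Serpina3n are known to rise. Astrocytes of different brain regions are known to differ in gene expression. In bulk tissue, fewer cells of a type and less RNA per cell cannot be told apart, and this holds for every value below.

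Libraries held 9869584 to 26750905 counts, and levels are given as cpm, counts relative to the TMM-scaled library total. Gdnf, the targeted gene, was highest in STR, while its group means in PFC and SN reached at most 1.06 cpm. In Nestin-Cre STR its level was 5.97 ± 1.26 cpm in WT (SD, n = 6), 6.24 ± 1.83 for the 7 HET libraries and 7.19 ± 1.46 for the 6 HOM libraries, and the groups overlapped. In AAV-Cre STR it was 6.59 ± 0.773 cpm in WT, 7.60 ± 1.10 in HET and 8.67 ± 0.864 in HOM (n = 7 each). The AAV-Cre HOM libraries (7.62 to 9.96 cpm) all lay above the WT libraries (5.34 to 7.50 cpm), and the log2 fold change was 0.40 (SE 0.09), with an adjusted p of 0.504 over all genes in edgeR. By qPCR the paper reports raised striatal Gdnf mRNA in both models. It describes the mRNA of the recombined allele as carrying a short 3′UTR. Counts here cover all 4867 exon bases of Gdnf, so they may under-read that mRNA, which was not tested. Markers of tissue next to the dissected regions varied between libraries of one group. The summed level of 6 choroid plexus genes ranged from 112 to 8084 cpm in AAV-Cre STR WT, where mice M3585 (8084 cpm) and M3588 (5505 cpm) were highest. The sum of 7 meningeal fibroblast genes ranged from 163 to 1213 cpm in Nestin-Cre SN WT, where mice M4329 (1213 cpm) and M4394 (1028 cpm) were highest.

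The promoters of 3 genes on which the results below turn are shown first: Gfap, whose difference between models in STR was the largest rise of the set there, Serpina3n, whose level followed the mouse, and Agt, which had the widest range between regions. All 3 symbols matched RefSeq, and each window is the 250 bases before the RefSeq start on build GRCm38.p6, the mm10 assembly of the files, written 5′ to 3′ on the strand of the gene, with matches to the motifs named after them in capitals. The mm10 gene coordinates of Agt end at base 124569707, so by those coordinates its window includes the first base of the gene.
Gfap (chr11:102897201-102897450, minus strand): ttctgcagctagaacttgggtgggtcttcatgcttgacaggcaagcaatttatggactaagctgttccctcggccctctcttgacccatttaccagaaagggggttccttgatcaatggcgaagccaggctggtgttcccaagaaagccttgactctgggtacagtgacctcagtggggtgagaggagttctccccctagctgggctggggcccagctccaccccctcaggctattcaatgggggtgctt
Serpina3n (chr12:104406458-104406707, plus strand): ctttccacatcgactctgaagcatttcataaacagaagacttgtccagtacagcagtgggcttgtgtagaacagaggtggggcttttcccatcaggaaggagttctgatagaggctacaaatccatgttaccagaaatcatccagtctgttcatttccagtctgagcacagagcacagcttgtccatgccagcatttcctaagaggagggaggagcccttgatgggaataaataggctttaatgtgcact
Agt (chr8:124569707-124569956, minus strand): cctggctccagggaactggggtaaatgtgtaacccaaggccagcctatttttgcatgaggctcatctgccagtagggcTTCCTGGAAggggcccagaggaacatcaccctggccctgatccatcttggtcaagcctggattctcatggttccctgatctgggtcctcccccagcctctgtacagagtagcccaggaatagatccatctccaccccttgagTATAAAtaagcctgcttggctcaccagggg
These windows were searched on both strands for a STAT motif (TTCNNNGAA), an AP-1 motif (TGANTCA), an NFI motif (TTGGC and GCCAA with any 5 bases between) and the letters TATAAA. The Agt window held a STAT match that starts 172 bases before the gene start and a TATAAA match that starts 30 bases before it, with no overlap between them. The Gfap and Serpina3n windows held none of the 4, which says only that these letters are not in this window. Over all 32851 promoters of the same length 7.02% held the STAT motif, 6.75% the AP-1 motif, 0.0365% the NFI motif and 12.4% TATAAA.

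Levels of the 32 genes spanned a wide range when scaled by exon length. Averaged over the 6 WT groups, Clu, a secreted chaperone, stood at 586 cpm per kb and Aldoc, the brain aldolase of glycolysis, at 359 cpm per kb. Slc1a2, the main glutamate transporter of astrocytes, followed at 222 cpm per kb. The lowest were the BMP receptor gene Bmpr1b (5.83 cpm per kb), the transcription factor gene Sox9 (6.93 cpm per kb) and Btbd17 (8.46 cpm per kb). Of the 3 genes of the reactive state, Gfap stood at 103 cpm per kb, Serpina3n at 56.9 and Vim at 29.0.

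Most of the set was higher in SN than in PFC and STR in both models. In Nestin-Cre WT mice 29 of the 32 genes were called higher and 1 lower in SN than in PFC, in a comparison that called 80.3% of the 15318 genes tested. The median log2 fold change was 0.83 over the 32 and -0.02 over all genes. In AAV-Cre WT mice 19 were higher and 3 lower (70.5% of all genes called), with a median of 0.32 against -0.02. Calls were made in edgeR's quasi-likelihood test, at an adjusted p (Benjamini-Hochberg) under 0.1. The astrocyte index, the mean of log2(cpm + 0.5) over the 32 genes, was 7.50 ± 0.13 in Nestin-Cre SN WT (SD, n = 6), 6.40 ± 0.09 in PFC (n = 8) and 6.45 ± 0.13 in STR (n = 6). In AAV-Cre WT mice it was 7.32 ± 0.09 in SN, 6.64 ± 0.11 in PFC and 6.62 ± 0.12 in STR (n = 7 each). On this index every SN library lay above every PFC and STR library of its model. Oligodendrocyte markers (12 genes) also stood higher, with sums of 18570 to 35070 cpm in Nestin-Cre SN against 4354 to 7573 in PFC, and 13700 to 21080 against 4082 to 5311 in AAV-Cre mice. Sums of 6 oligodendrocyte precursor markers stood higher too, at 400 to 617 against 258 to 342 cpm and 409 to 592 against 266 to 368 cpm. Sums of 10 neuron markers were lower in SN, at 6219 to 7969 against 10830 to 12660 cpm in Nestin-Cre and 6218 to 7909 against 8629 to 11180 cpm in AAV-Cre mice. None of these sums overlapped between SN and PFC. The part of tissue makeup in the regional differences was not tested.

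Agt encodes angiotensinogen, the precursor of the angiotensin peptides. In Nestin-Cre WT mice it ranged from 3.24 to 7.57 cpm in PFC (median 5.78), from 10.98 to 67.6 in STR (median 35.6) and from 326 to 547 in SN (median 379.6). In AAV-Cre WT mice it ranged from 5.59 to 8.36 cpm in PFC (median 6.17), from 22.5 to 76.6 in STR (median 46.2) and from 217 to 362 in SN (median 312). The 3 regions did not overlap in either model. The log2 fold change of SN over PFC was 6.20 in Nestin-Cre (SE 0.28, adjusted p 5.24e-22) and 5.53 in AAV-Cre mice (SE 0.29, adjusted p 8.09e-20).

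Gfap ranged from 102 to 196 cpm in Nestin-Cre PFC WT (median 144), from 58.8 to 113 in STR (median 72.1) and from 752 to 1823 in SN (median 1145). In AAV-Cre WT mice it ranged from 130.2 to 229.6 cpm in PFC (median 148), from 87.8 to 273 in STR (median 182) and from 434 to 1075 in SN (median 732). The SN libraries lay above all PFC and STR libraries of their model, while PFC and STR overlapped. The log2 fold change of SN over PFC was 2.91 in Nestin-Cre (SE 0.22, adjusted p 3.78e-15) and 2.17 in AAV-Cre mice (SE 0.22, adjusted p 2.75e-11). Itih3, a heavy chain of the hyaluronan-binding inter-alpha-trypsin inhibitors, was the other gene of the leading 3, at 2.93 (SE 0.18, adjusted p 1.44e-17) and 2.46 (SE 0.18, adjusted p 6.71e-15).

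Slc1a2 ran the other way. In WT mice it stood at 2405 to 4059 cpm in Nestin-Cre PFC, 2438 to 3030 in STR and 1191 to 1979 in SN, and at 3400 to 3884, 2680 to 3128 and 1674 to 2116 cpm in the AAV-Cre regions. SN lay below all PFC and STR libraries, with log2 fold changes against PFC of -0.95 (SE 0.09, adjusted p 1.98e-12) and -1.06 (SE 0.09, adjusted p 8.93e-14). The GABA transporter gene Slc6a11 was called higher in SN than in PFC, at 1.65 and 1.91 on the log2 scale, as was the amino acid exchanger gene Slc7a10, at 0.77 and 0.50. Prodh, the first enzyme of proline breakdown, was called lower in SN than in STR in both models, at -0.36 and -0.40.

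By role, 5 of 5 water and ion genes were called higher in SN than in PFC in Nestin-Cre and 4 of 5 in AAV-Cre mice, beside 80.3% and 70.5% of all genes called in either direction, the background for each role below. Among them the water channel gene Aqp4 stood at 2.22 and 1.40 and the potassium channel gene Kcnj10 at 1.12 and 1.03 on the log2 scale. Both gap junction genes, Gja1, the main astrocyte connexin, and Gjb6, another connexin, were called higher in SN than in PFC and than in STR in both models. Of 7 secreted and surface genes 7 were higher in Nestin-Cre SN, and in AAV-Cre mice 5 were higher and 1 lower (Clu, -0.20). Of 7 metabolism genes 6 were higher in Nestin-Cre SN, and in AAV-Cre mice 3 were higher and 1 lower (Prodh, -0.34). SN against STR gave 28 genes higher and 4 lower in Nestin-Cre (78.5% of all genes called) and 24 higher and 3 lower in AAV-Cre mice (72.1%). The largest rises over STR were Gfap (3.93, SE 0.26, adjusted p 5.99e-17), Agt (3.56) and Slc6a11 (2.53) in Nestin-Cre and Agt (2.65, SE 0.24, adjusted p 1.04e-12), Slc6a11 (2.39) and Itih3 (2.20) in AAV-Cre mice.

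Between STR and PFC the set was divided, with 11 genes higher and 11 lower in STR in Nestin-Cre (70.3% of all genes called) and 3 higher and 12 lower in AAV-Cre mice (61.3%). The median over the 32 was -0.10 and -0.11, against 0.0027 and 0.02 over all genes. Neuron marker sums were lower in STR than in PFC without overlap, at 6416 to 7389 against 10830 to 12660 cpm in Nestin-Cre and 5180 to 5983 against 8629 to 11180 cpm in AAV-Cre mice. Oligodendrocyte sums were 6781 to 13690 against 4354 to 7573 cpm in Nestin-Cre mice, with overlap, and 8546 to 13740 against 4082 to 5311 cpm in AAV-Cre mice, without. Their part was not tested. Id4, an inhibitor of helix-loop-helix transcription factors, ranged from 139.6 to 197 cpm in Nestin-Cre and from 119 to 168 in AAV-Cre STR WT, while no PFC or SN library of WT mice exceeded 44.5 cpm. Its log2 fold change of STR over PFC was 2.46 (SE 0.10, adjusted p 2.31e-22) and 1.96 (SE 0.10, adjusted p 3.82e-19). Agt was higher in STR than in PFC by 2.63 (SE 0.26, adjusted p 1.89e-11) and 2.88 (SE 0.27, adjusted p 5.50e-12). The next was Btbd17 in Nestin-Cre (0.87, SE 0.17, adjusted p 3.13e-05) and the bicarbonate cotransporter gene Slc4a4 in AAV-Cre mice (0.72, SE 0.08, adjusted p 3.09e-10).

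On the lower side, Gfap stood at -1.02 in Nestin-Cre mice (SE 0.22, adjusted p 1.10e-04), and at 0.16 in AAV-Cre mice, where it was not called (adjusted p 0.528). Serpina3n stood at -1.27 in Nestin-Cre (SE 0.44, adjusted p 0.0109) and at -0.83 in AAV-Cre mice (SE 0.42, adjusted p 0.0918). The AAV-Cre call was lost in DESeq2 (adjusted p 0.103) and without any one of 9 of the 41 WT libraries. In each of the 7 AAV-Cre WT mice the Serpina3n level was lower in STR than in PFC. Slc6a11 stood at -0.88 in Nestin-Cre mice (SE 0.15, adjusted p 4.95e-06). Fabp7, a fatty acid binding protein of radial glia and immature astrocytes, stood at -1.36 in AAV-Cre mice (SE 0.23, adjusted p 4.84e-06), and Gjb6 at -0.78 (SE 0.12, adjusted p 9.48e-07).

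**Figure D1:**
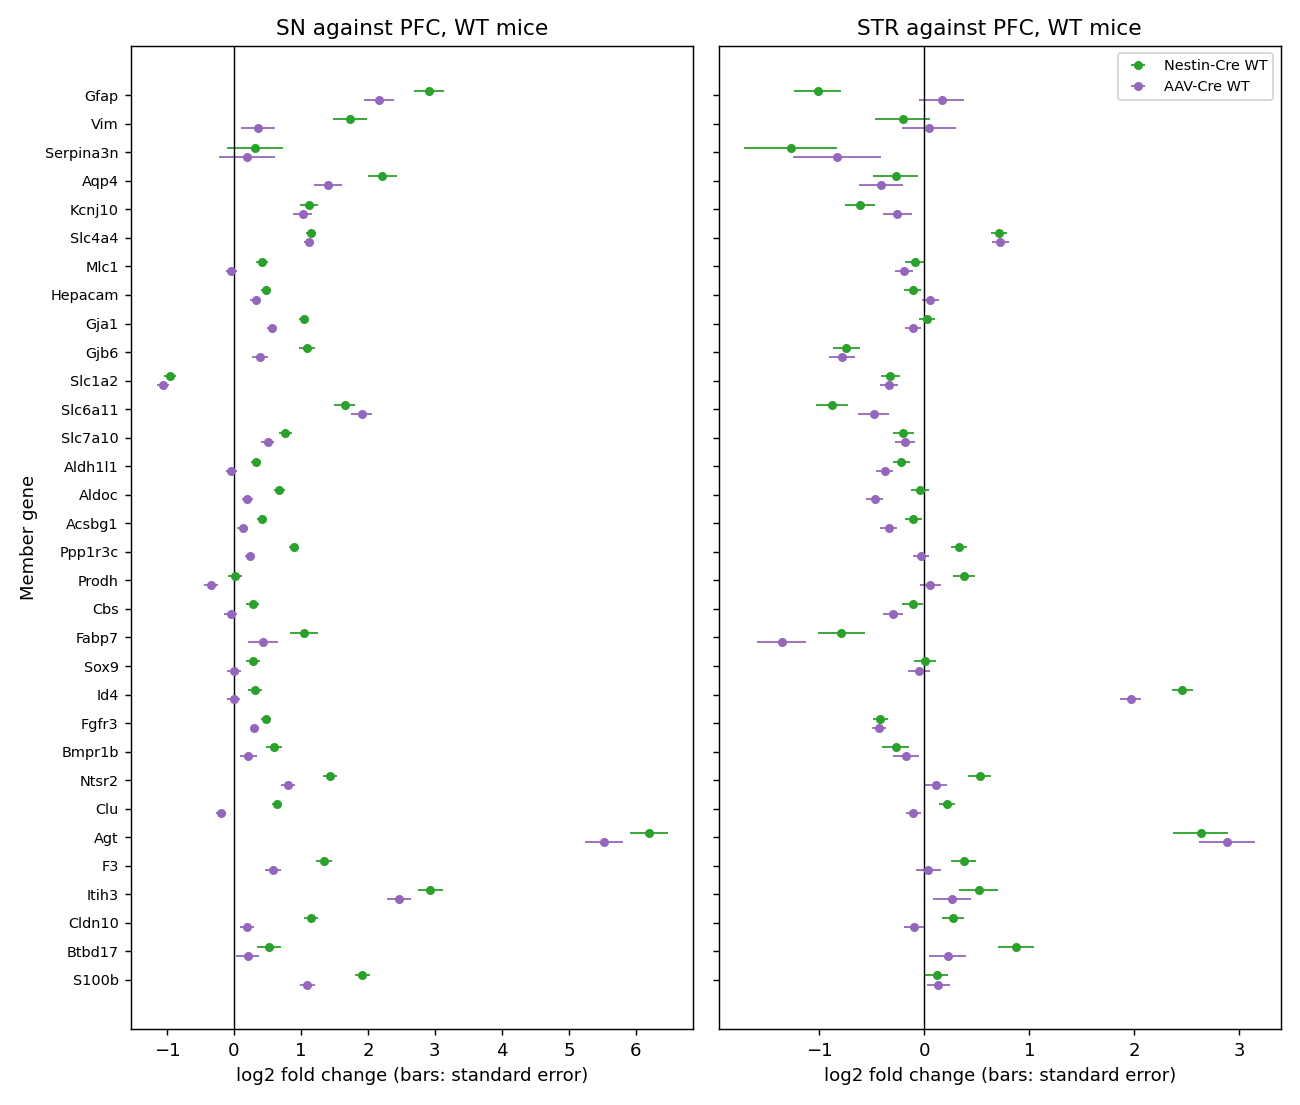
Log2 fold change of each of the 32 genes, with its standard error, in SN against PFC (left) and STR against PFC (right) in WT mice of the Nestin-Cre (green) and AAV-Cre (purple) models. Agt lies furthest right on the left side at 6.20 and 5.53, and on the right side Id4 and Agt stand apart from the rest while Gfap stands at -1.02 and 0.16.

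Of 36 further astrocyte genes outside the set, 21 were higher and 11 lower in SN than in PFC in Nestin-Cre (against 80.3% of all genes called), and 16 higher and 13 lower in AAV-Cre WT mice (against 70.5%). Chrdl1, a secreted BMP antagonist, was lower at -2.90 and -3.02 on the log2 scale, and Crym, a thyroid hormone binding protein, at -2.33 and -2.71. The third gene by size was Etnppl, an enzyme of phosphoethanolamine breakdown, at 2.80 in Nestin-Cre mice and Dio2, which activates thyroid hormone, at -2.23 in AAV-Cre mice.

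AAV-Cre and Nestin-Cre WT mice differed in a way that depended on the region. In PFC 21 of the 32 genes were higher and 1 lower in AAV-Cre mice (41.1% of all genes called), with a median of 0.27 against 0.01 over all genes. In STR 15 were higher and 4 lower (59.7%), with a median of 0.22 against 0.01. In SN 4 were higher and 14 lower (62.7%), with a median of -0.15 against 0.04. In these WT mice the share of the 32 that was called in STR and SN lay near or below the share of all genes. In PFC HET mice gave 2 higher and 2 lower (8.13% of all genes called), with a median of 0.115 against 0.0058. HOM mice gave 6 higher and 1 lower there (4.32%), with a median of 0.221 against 0.0047. In SN HET mice gave 6 higher and 7 lower (41.4%), and HOM mice 6 higher and 12 lower (51.9%).

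Gfap had the largest rise of the set in STR. The 6 Nestin-Cre WT libraries ranged from 58.8 to 113 cpm and the 7 AAV-Cre WT libraries from 87.8 to 273 cpm. A single AAV-Cre mouse, M3587 at 87.8 cpm, lay inside the Nestin-Cre range, and the other 6 lay above it. The log2 fold change was 1.28 (SE 0.23, adjusted p 1.28e-05). In PFC it was 0.10 (SE 0.21, adjusted p 0.756) and in SN -0.65 (SE 0.22, adjusted p 0.011). The SN contrast was not called in HET (-0.19, adjusted p 0.327) or HOM mice (-0.36, adjusted p 0.114). The STR contrast was also called in HET mice (0.91, SE 0.15, adjusted p 1.69e-05), a comparison that called 43.1% of all genes and 9 of the 32 higher and 5 lower. The HET libraries ranged from 71.2 to 118 cpm in Nestin-Cre and from 119 to 279 in AAV-Cre mice, without overlap. In HOM mice it was 0.71 (SE 0.20, adjusted p 0.00888), with 34.8% of all genes called and 7 of the 32 higher and 4 lower. The HOM libraries ranged from 48.0 to 145 and from 111 to 183 cpm and overlapped.

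Whether the model difference in STR exceeded that in PFC was tested by their interaction in WT mice. It called 1 of the 32 genes higher and 7 lower in STR (29.4% of all genes called). The gene called higher was Gfap, at 1.18 (SE 0.30, adjusted p 0.00467). This call held with each of the 41 WT libraries left out in turn (1.06 to 1.32), with mouse as a block (1.20) and without the STR libraries of M3585 and M3588 (1.12, adjusted p 0.0131). The genes called lower were led by Btbd17 (-0.65, SE 0.25, adjusted p 0.0534), Id4 (-0.49, SE 0.14, adjusted p 0.0108) and Aldoc (-0.44, SE 0.12, adjusted p 0.00669). The call of Btbd17 was lost without PFC library M3588 (adjusted p 0.133) or STR library M4326 (adjusted p 0.109). The other 4 were the neurotensin receptor gene Ntsr2 (-0.42), the tight junction gene Cldn10 (-0.37), Ppp1r3c of glycogen metabolism (-0.36) and Clu (-0.32). In HET mice the interaction gave 1.09 for Gfap (SE 0.21, adjusted p 0.00225), with 6.57% of all genes called and 1 of the 32 higher and 2 lower. In HOM mice it gave 0.83 (SE 0.29, adjusted p 0.203), with 1.41% of all genes and 0 of the 32 called and 2 at an unadjusted p under 0.05 in edgeR.

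**Figure D2:**
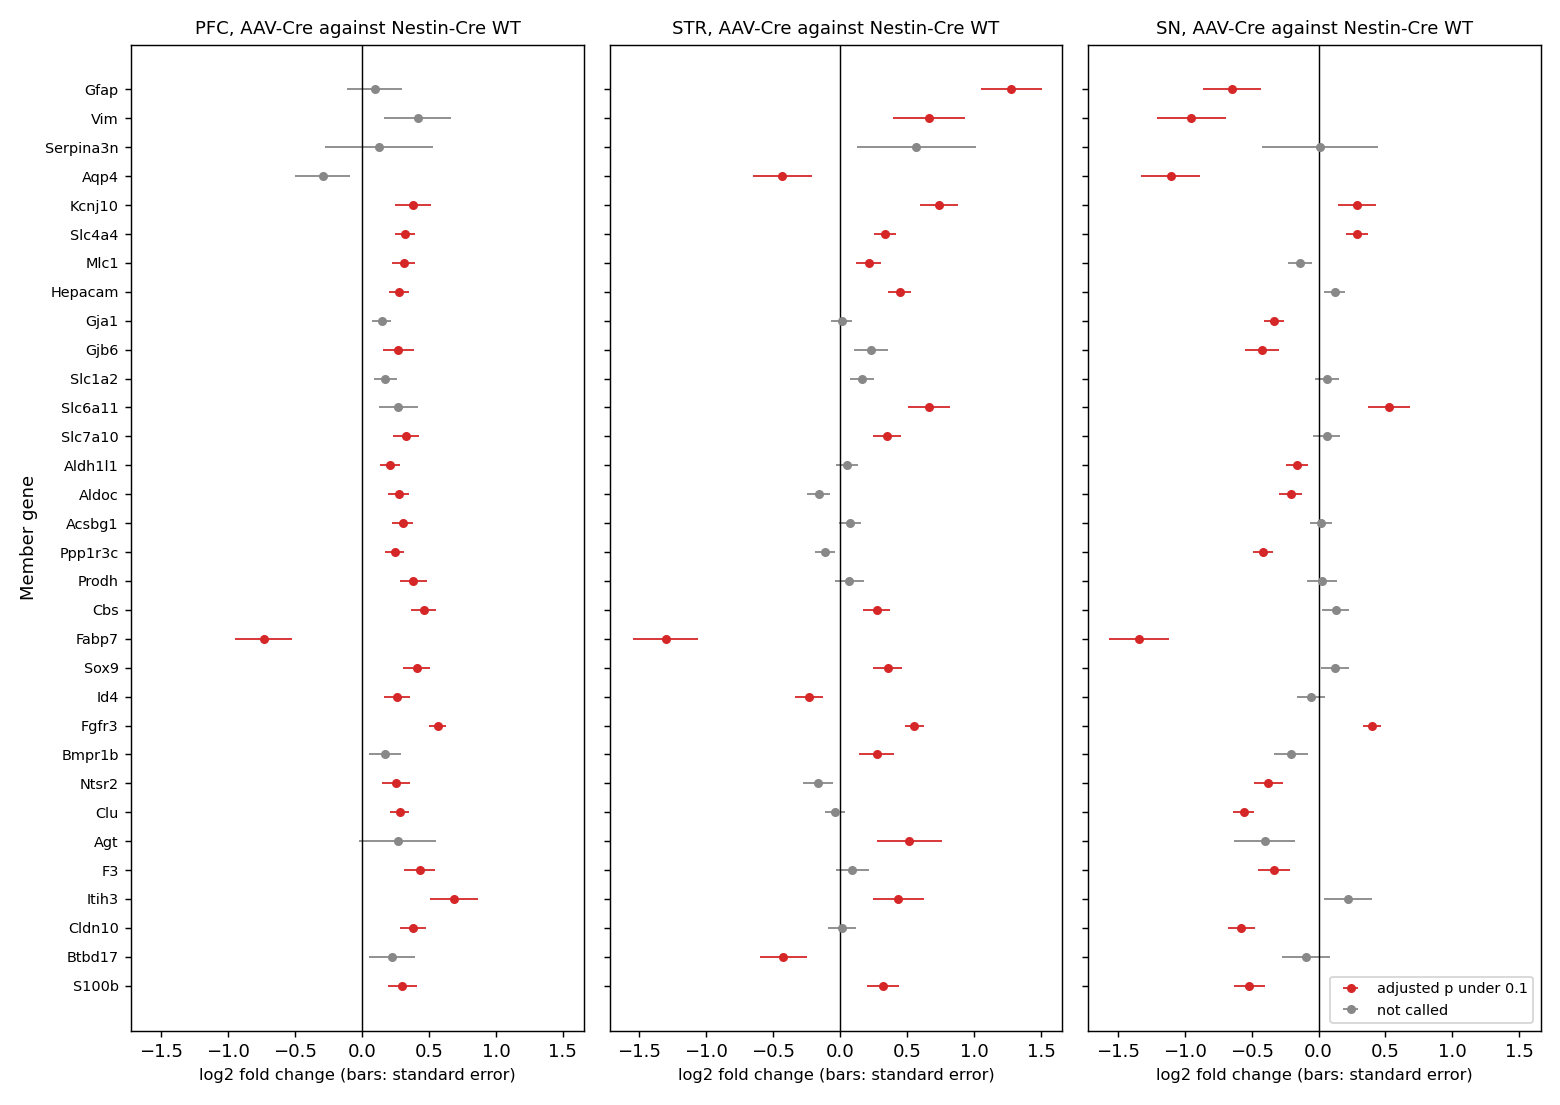
Log2 fold change of each of the 32 genes, with its standard error, in AAV-Cre against Nestin-Cre WT mice in PFC, STR and SN, with genes at an adjusted p under 0.1 in red and the others in grey. Gfap stands at 0.10, 1.28 and -0.65 in the 3 panels, and Fabp7 lies below 0 in each.

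Compared with SN, 14 of the 32 genes showed a higher model difference in STR and 0 a lower one (34.0% of all genes called). They were led by Gfap (1.92, SE 0.31, adjusted p 5.81e-05), Vim (1.61, SE 0.38, adjusted p 0.00193) and Agt (0.92, SE 0.33, adjusted p 0.0395). Compared with PFC, the model difference in SN was lower for 19 genes and higher for 0 (45.0% called), led by Vim (-1.37, SE 0.36, adjusted p 0.00265), Cldn10 (-0.96, SE 0.14, adjusted p 2.00e-06) and Clu (-0.84, SE 0.10, adjusted p 1.23e-07). These comparisons share the SN libraries. In SN, 12 of 12 oligodendrocyte, 7 of 7 meningeal fibroblast and 9 of 13 microglia markers were also lower in AAV-Cre than in Nestin-Cre WT mice, beside 62.7% of all genes called in either direction, with oligodendrocyte sums of 13700 to 21080 against 18570 to 35070 cpm. In STR 5 of 12 oligodendrocyte markers were higher and 1 lower, and 6 of 6 choroid plexus markers were higher, beside 59.7% of all genes called. Of 10 neuron markers 7 were lower in STR, and their sums of 5180 to 5983 cpm in AAV-Cre mice did not overlap those of 6416 to 7389 cpm in Nestin-Cre mice. Ependymal sums in STR were 35.5 to 79.4 cpm (median 38.5) in AAV-Cre against 10.8 to 39.7 (median 32.7) in Nestin-Cre mice, with overlap. Meningeal fibroblast sums there were 46.7 to 408 cpm (median 53.5) against 41.6 to 129 (median 71.4), with overlap. In PFC 12 of 13 microglia markers were higher, beside 41.1% of all genes called, with sums of 596.5 to 803 against 478 to 592 cpm and no overlap. There 5 of 10 neuron markers were lower (8629 to 11180 against 10830 to 12660 cpm) and 5 of 10 endothelial and mural markers higher (416 to 521 against 375 to 486 cpm), with overlap. Their part in the model differences was not tested.

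Vim is also expressed by fibroblasts and vascular cells. In Nestin-Cre SN WT it stood at 269.7 cpm in M4329 and 176 cpm in M4394, the mice with the highest meningeal sums, and at 41.7 to 73.4 cpm in the other 4. In AAV-Cre SN WT it ranged from 42.8 to 82.2 cpm. The log2 fold change between models in SN was -0.95 (SE 0.26, adjusted p 0.00207), and without those libraries of M4329 and M4394 it was 0.04 (adjusted p 0.876). The same omission took the SN against PFC interaction to -0.38 (adjusted p 0.189) and the STR against SN interaction to 0.63 (adjusted p 0.0452). In STR Vim ranged from 20.0 to 34.2 cpm in Nestin-Cre and from 34.9 to 55.0 in AAV-Cre WT mice, without overlap, at a log2 fold change of 0.66 (SE 0.27, adjusted p 0.0373). Without the STR libraries of M3585 and M3588 this was 0.58 (adjusted p 0.106). The STR contrast of Vim was not called in HET (0.30, adjusted p 0.29) or HOM mice (0.21, adjusted p 0.548).

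Fabp7 was lower in AAV-Cre than in Nestin-Cre WT mice in all 3 regions, at -0.74 in PFC (SE 0.22, adjusted p 0.0076), -1.30 in STR (SE 0.24, adjusted p 2.18e-05) and -1.34 in SN (SE 0.22, adjusted p 3.02e-06). It stood at 24.2 to 49.6 against 8.99 to 16.8 cpm in STR and 89.0 to 120.4 against 32.3 to 60.9 in SN, without overlap, and at 23.1 to 77.9 against 18.2 to 63.9 in PFC, with overlap. Fgfr3, a fibroblast growth factor receptor of astrocytes, was higher in all 3 regions without overlap, at 0.56 in PFC (SE 0.07, adjusted p 1.32e-07), 0.55 in STR (SE 0.07, adjusted p 5.82e-08) and 0.40 in SN (SE 0.07, adjusted p 7.37e-06). In PFC the other leading rises were Itih3 (0.69, SE 0.18, adjusted p 0.00266) and Cbs, which makes cystathionine (0.46, SE 0.09, adjusted p 2.37e-04). In STR they were Kcnj10 (0.74, SE 0.14, adjusted p 4.95e-05) and Slc6a11 (0.66, SE 0.16, adjusted p 5.44e-04). In SN they were Slc6a11 (0.53, SE 0.16, adjusted p 0.00408) and Slc4a4 (0.29, SE 0.08, adjusted p 0.00265).

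Aqp4 ranged from 426 to 1324 cpm in Nestin-Cre and from 278 to 555 in AAV-Cre SN WT, a difference of -1.11 on the log2 scale (SE 0.22, adjusted p 3.96e-05). In STR it stood at -0.43 (SE 0.22, adjusted p 0.0928), a call lost without M3585 and M3588 (adjusted p 0.107) and without any one of 8 single libraries, at most to -0.31 without M4529. Btbd17 in STR stood at -0.42 (SE 0.18, adjusted p 0.0415), a call lost without M4326 (-0.35, adjusted p 0.114).

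Genes of reactive astrocytes outside the set were read from 3 further lists, known as pan-reactive, A1 (from neuroinflammation) and A2 (from ischaemia). In STR 5 of 8 tested pan-reactive genes were higher in AAV-Cre than in Nestin-Cre WT mice and 0 lower, led by Cxcl10, an interferon-induced chemokine (3.68), the metalloreductase gene Steap4 (1.37) and Aspg (1.24). Of 10 A1 genes 6 were higher and 1 lower, led by the class I MHC gene H2-D1 (2.05) and the interferon-induced GTPase genes Iigp1 (1.95) and Gbp2 (1.56). Library M3677 stood apart in the A1 genes, at 17.0 cpm of Iigp1 against 1.36 to 2.54 in the other 6 AAV-Cre libraries, 17.6 of Gbp2 against 4.45 to 6.16 and 77.4 of H2-D1 against 17.7 to 39.5. Without it Iigp1 stood at 0.85 (adjusted p 0.042), Gbp2 at 1.17 (adjusted p 0.00157) and H2-D1 at 1.66 (adjusted p 5.55e-08), and the list gave 6 higher and 1 lower with a median of 0.69. The pan-reactive list then gave 4 higher and 0 lower, with a median of 0.59. Cxcl10, which lay between 0.209 and 1.19 cpm in AAV-Cre and at most at 0.107 cpm in Nestin-Cre mice, did not pass the filter on low counts without M3677, PFC library M3588 or SN library M4329. Steap4 was not called in STR without M3585 (0.78, adjusted p 0.184). Of 9 tested A2 genes 1 was higher (Cd109, 0.87) and 1 lower (S100a10, -0.94). With 59.7% of all genes called in STR, the shares of the pan-reactive and A1 lists lay near that of all genes and the share of the A2 list below it. The median log2 fold changes of the 3 lists were 0.74, 0.76 and 0.10, against 0.01 over all genes. In PFC, where 41.1% of all genes were called, the pan-reactive list gave 2 higher and 1 lower, the A1 list 2 and 0 and the A2 list 0 and 0. In SN, at 62.7% of all genes, they gave 0 and 2, 1 and 3, and 0 and 5. The largest calls in PFC were Cxcl10 (2.02), H2-D1 (0.93) and the immunoproteasome gene Psmb8 (0.84). In SN they were S100a10 (-1.28), the complement inhibitor gene Serping1 (-0.99) and Cd14 (-0.93), while H2-D1 stood at 0.85 and was called. Serping1 was not called without M4329 (adjusted p 0.149), and without it the A2 list gave 3 lower. Microglia and endothelium also express some of these genes. In STR 1 of 13 microglia markers was higher and 1 lower, with sums of 659 to 808 cpm in AAV-Cre against 656 to 886 in Nestin-Cre mice, and 6 of 10 endothelial and mural markers were higher (375 to 428 against 269 to 379.6 cpm). Their part was not tested.

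The interaction of model and region, STR against PFC, called 2 of 8 pan-reactive genes higher (Steap4, 1.60, and Aspg, 1.03) and 2 of 10 A1 genes (H2-D1, 1.11, and the MHC gene H2-T23, 1.00), and no gene of these lists lower, which lies below the 29.4% of all genes called. With single libraries left out the pan-reactive count ran from 0 to 2 and the A1 count from 2 to 4, with Steap4 not called in 12 of the 41 omissions and Aspg in 3. Without M3677 the edgeR interaction of H2-D1 was 0.73 (adjusted p 0.05) and that of H2-T23 was 0.86 (adjusted p 0.0619). Among the 36 further astrocyte genes it called 0 higher and 13 lower, led by Chrdl1 (-0.67), Dio2 (-0.63) and the metallothionein gene Mt1 (-0.63).

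By genotype, edgeR's quasi-likelihood test called 0 of the 32 genes in each of the 12 comparisons of HET or HOM with WT. Few genes of any kind passed this test, with 0.250% of all genes called in Nestin-Cre PFC HOM, 0.0137% in AAV-Cre PFC HOM and 0% in each of the other 10. Without M4575 the share was 0.634% in Nestin-Cre PFC HET and 0.258% in HOM, with 0 of the 32 called. With only the 2 genotypes compared it was 0.273% and 0.0350% there, again with 0 of the 32 called. At an unadjusted p under 0.05, with the share of all genes at that p in parentheses, the Nestin-Cre counts for HET and HOM were 4 (9.72%) and 4 (10.1%) in PFC, 6 (17.3%) and 2 (4.62%) in STR, and 1 (8.99%) and 0 (4.09%) in SN. The AAV-Cre counts were 14 (12.3%) and 12 (14.2%) in PFC, 0 (1.71%) and 1 (4.58%) in STR, and 0 (4.69%) and 4 (7.49%) in SN. DESeq2 called 1 gene in Nestin-Cre STR HET (Gja1), where it called 3.69% of all genes, 1 in AAV-Cre PFC HET (Fgfr3; 0.221%) and 4 in AAV-Cre PFC HOM (Mlc1, Hepacam, Fgfr3 and Clu; 6.77%). DESeq2 gave an adjusted p to 2717 genes in each of these AAV-Cre PFC comparisons. It called 0 of the 32 in the other 9 comparisons, with 0% to 1.64% of all genes called. The paper reports more differentially expressed genes in PFC of both models than the quasi-likelihood test called here. A likelihood ratio test on the trended dispersion called 2.88% of all genes in Nestin-Cre PFC HET and 2.15% in HOM. In AAV-Cre PFC it called 1.70% and 2.93%.

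In AAV-Cre PFC nearly the whole set lay below WT. In HET 31 of the 32 log2 fold changes were below 0 with a median of -0.16, and in HOM 31 were below 0 with a median of -0.17, against medians of -0.0022 and -0.0033 over all genes. The HET and HOM comparisons share their 7 WT libraries. Those 7 also enter the WT model difference in PFC above and the model differences of genotype effects below, so these results are not independent. The astrocyte index was 6.64 ± 0.11 in WT (6.53 to 6.79), 6.49 ± 0.08 in HET (6.39 to 6.59, n = 7) and 6.48 ± 0.10 in HOM (6.35 to 6.64, n = 8), with overlapping ranges. In Nestin-Cre PFC its means were 6.40 in WT, 6.42 in HET and 6.325 in HOM. The lowest adjusted p belonged to Vim in HOM. Vim ranged from 37.9 to 50.2 cpm in WT (median 41.8), from 33.9 to 44.4 in HET (median 36.4) and from 29.6 to 40.7 in HOM (median 32.9), at log2 fold changes of -0.22 in HET (SE 0.09, adjusted p 0.342) and -0.35 in HOM (SE 0.08, adjusted p 0.141). Neuron marker sums ranged from 8629 to 11180 cpm in WT, from 9845 to 12190 in HET and from 9959 to 12150 in HOM, and endothelial and mural sums from 416 to 521, 358 to 452 and 372 to 443 cpm. Microglia sums ranged from 596.5 to 803 (median 662), 522 to 702 (median 574) and 535 to 697 cpm (median 572). Their part was not tested.

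In the other comparisons the median over the 32 genes lay between -0.12 (Nestin-Cre SN HET) and 0.11 (Nestin-Cre STR HET). Over all genes the medians of these comparisons were 0.0021 and 0.01. In Nestin-Cre SN 29 genes were below 0 in HET and 25 in HOM, while 50.4% and 50.7% of all genes lay above 0. Oligodendrocyte sums there ranged from 18570 to 35070 cpm in WT (median 29390), from 17170 to 26230 in HET (median 23820) and from 16310 to 25520 in HOM (median 21590). Meningeal fibroblast sums ranged from 163 to 1213 cpm in WT (median 256), from 218 to 1001 in HET (median 406) and from 281 to 1134 in HOM (median 560.4). Sums of the A1 list in Nestin-Cre SN had medians of 117.8 cpm in WT, 140.4 in HET and 164.6 in HOM. Those of the pan-reactive list were 76.4, 85.3 and 102.9, and those of the A2 list 73.6, 65.6 and 70.45. The ranges of each list overlapped between genotypes. Neuron sums in Nestin-Cre STR ranged from 6416 to 7389 cpm in WT (median 6827). They ranged from 5270 to 6669 in HET (median 5632) and from 5726 to 8205 in HOM (median 6036). Oligodendrocyte precursor sums in Nestin-Cre STR had medians of 298 cpm in WT, 352 in HET and 293 in HOM, with overlapping ranges. Choroid plexus sums were far apart within some of the groups compared, reaching 19060 cpm in Nestin-Cre STR HET (median 83.8), 20350 in AAV-Cre SN HET (median 28.8), 1283 in AAV-Cre PFC HET (median 11.4), and 6851 and 6462 in AAV-Cre STR HET and HOM (medians 149.7 and 126). The part of these markers was not tested. Gfap in Nestin-Cre SN ranged from 752 to 1823 cpm in WT, from 645 to 1124 in HET and from 595 to 1146 in HOM, at -0.52 (SE 0.20, adjusted p 0.518) and -0.30 (SE 0.21, adjusted p 0.892), with overlapping groups. In STR it stood at 0.34 and 0.26 for HET and HOM of Nestin-Cre and at -0.02 and -0.30 of AAV-Cre mice. Gja1 in Nestin-Cre STR HET stood at 0.39 (SE 0.11, adjusted p 0.175). The neuron and oligodendrocyte precursor sums of that group, given above, overlapped WT and had other medians. Aldh1l1, a folate enzyme gene used as a general astrocyte marker, stood at -0.18 in Nestin-Cre PFC HOM (SE 0.06, adjusted p 0.217). Its HOM libraries (n = 4) did not overlap WT (n = 8). No other gene of the 32 had libraries apart from WT in this or any other genotype comparison. The share of all genes that separate in this way was not measured, so no conclusion is drawn from it. The test of whether a genotype effect differed between STR and PFC called 0 of the 32 genes and 0% of all genes for HET and HOM of both models in edgeR. At an unadjusted p under 0.05 the Nestin-Cre counts for HET and HOM were 0 (6.31% of all genes) and 0 (3.02%), those of AAV-Cre mice were 7 (4.18%) and 2 (4.19%), and DESeq2 called 0.

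**Figure D3:**
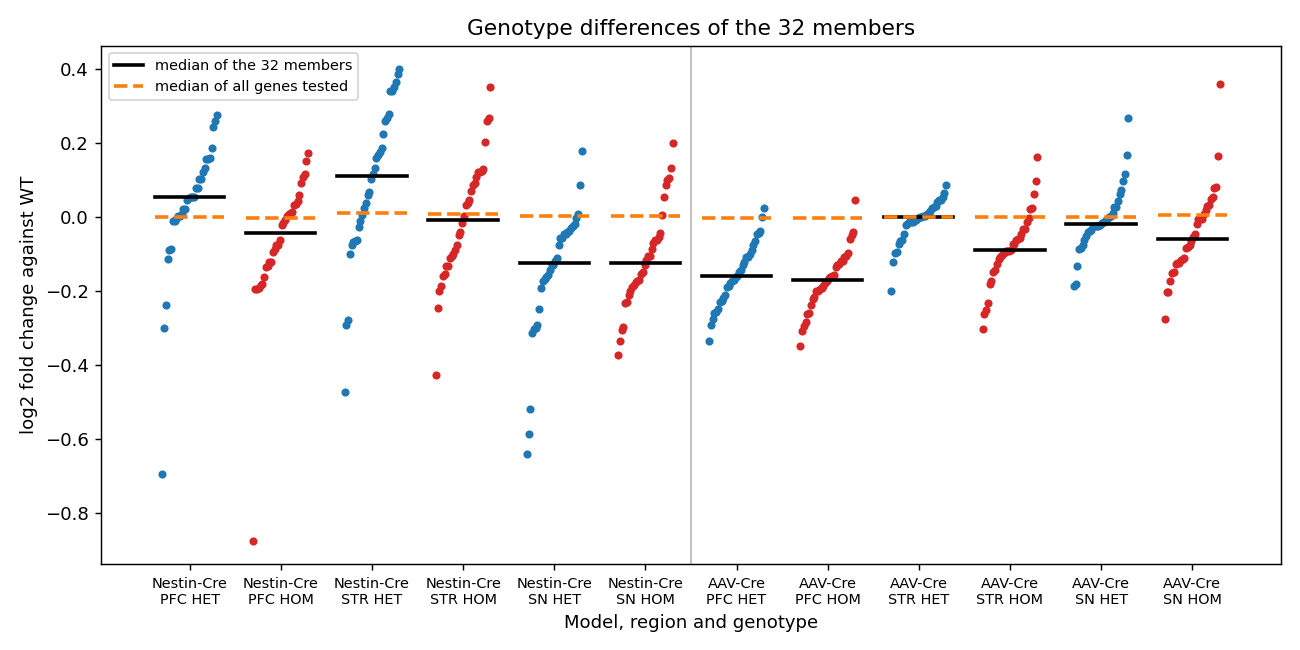
Log2 fold changes against WT of the 32 genes (points, sorted, HET in blue and HOM in red) in each of the 12 genotype comparisons, with the median of the 32 (black) and of all genes tested (orange dashes). In the AAV-Cre PFC columns 31 of 32 points lie below 0, and the lowest points in the Nestin-Cre PFC columns are Serpina3n at -0.69 and -0.87.

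The effect of HET in PFC differed between the models for 3 of the 32 genes (0.678% of all genes called), each lower in AAV-Cre mice, and that of HOM for 1 (3.54%). The HET and HOM differences share the WT PFC libraries of both models, which also enter the genotype and model comparisons in PFC above. Cldn10 was among the calls. In Nestin-Cre PFC it ranged from 29.6 to 36.0 cpm in WT (median 33.8), from 33.2 to 41.0 in HET (median 36.9) and from 35.6 to 39.3 over the 4 HOM libraries (median 36.5). In AAV-Cre PFC it ranged from 38.5 to 52.4 cpm in WT (median 39.5), from 29.4 to 41.3 in HET (median 32.6) and from 31.8 to 42.3 in HOM (median 36.6). The difference of effects was -0.49 for HET (SE 0.10, adjusted p 0.0435) and -0.39 for HOM (SE 0.11, adjusted p 0.053). Gja1 (-0.50, SE 0.11, adjusted p 0.0596) and Clu (-0.27, SE 0.07, adjusted p 0.0843) were the other calls for HET. Gja1 ranged from 207 to 273 cpm in WT and 228 to 358 in HET of Nestin-Cre, and from 221 to 284 and 196 to 246 of AAV-Cre mice. Within a model none of the 3 genes was called for HET by edgeR's quasi-likelihood test or DESeq2, while the likelihood ratio test called Gja1 in Nestin-Cre (0.28, adjusted p 0.0125) and Cldn10 in AAV-Cre mice (-0.34, adjusted p 0.0284). The HET count fell to 0 without AAV-Cre HET M3688 or Nestin-Cre HET M4578 and to 1 without AAV-Cre WT M3576, Nestin-Cre HET M4577 or Nestin-Cre WT M4394, and the HOM count fell to 0 without Nestin-Cre HOM M4393 or M4568.

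In STR the effect of HET and HOM differed between models by call for 0 of the 32 genes in edgeR (0.00673% and 0.0202% of all genes called), with 4 and 2 at an unadjusted p under 0.05 (against 15.5% and 6.67% of all genes), and DESeq2 called 1 (Gja1, with 4.62% of all genes called) and 0. In SN edgeR called 0 (0% and 0% of all genes), with 2 and 0 at an unadjusted p under 0.05 (against 14.0% and 3.32% of all genes), and DESeq2 called 0 and 0.

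**Figure D4:**
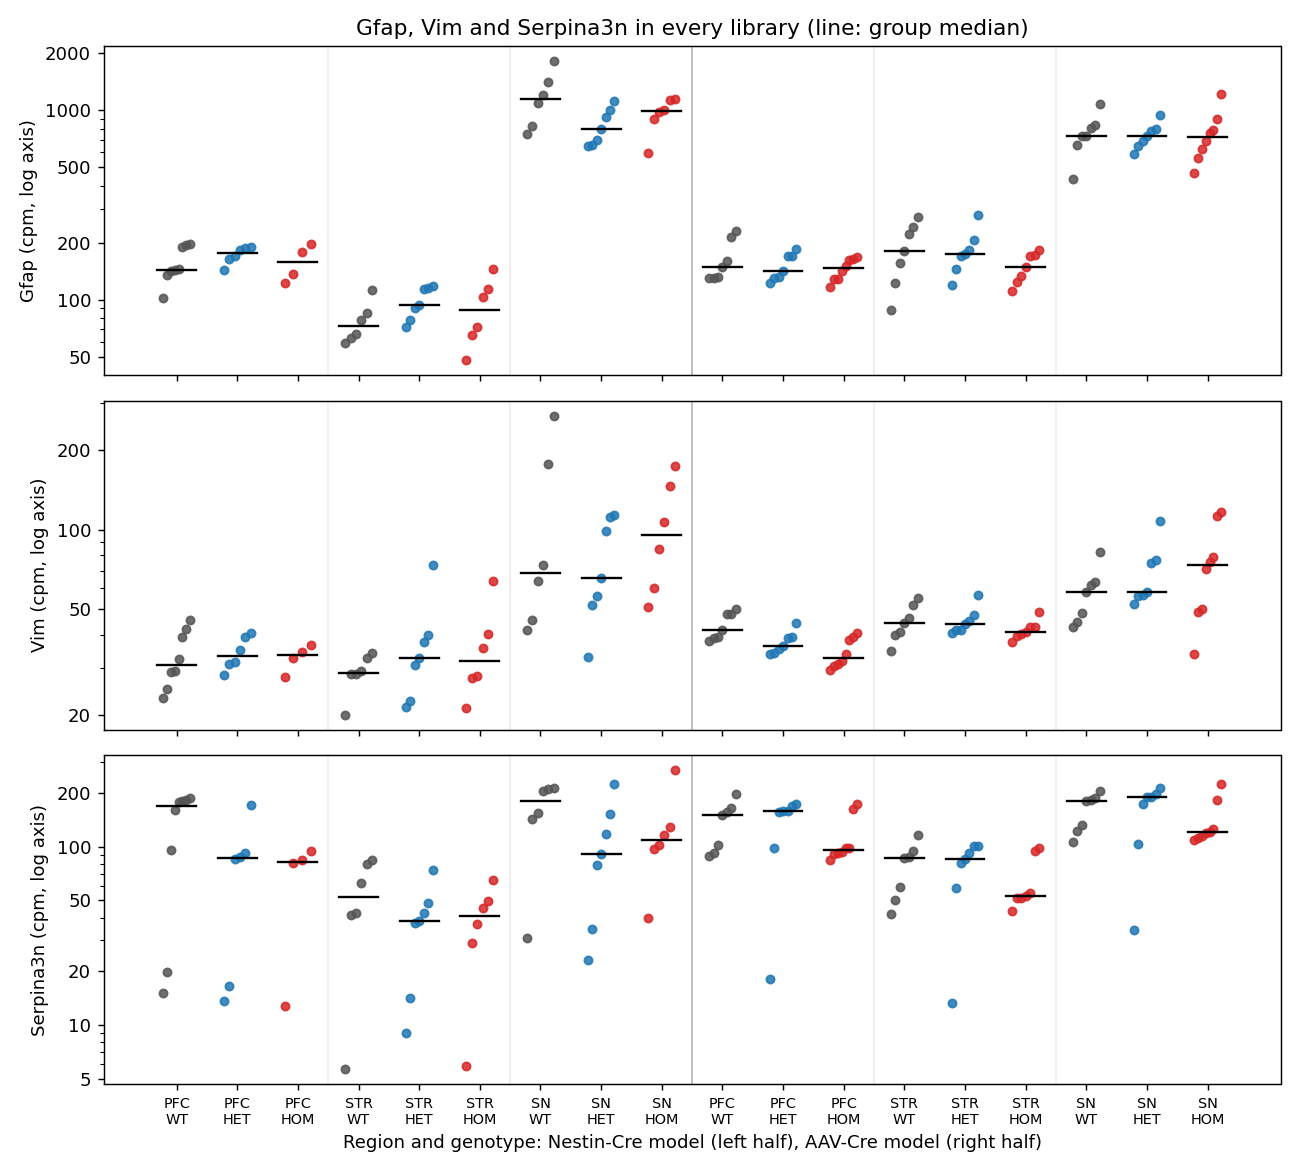
Level of Gfap, Vim and Serpina3n in each of the 121 libraries, in cpm on a log axis, by region and genotype (WT grey, HET blue, HOM red) with the group median as a line, Nestin-Cre on the left and AAV-Cre on the right. Gfap is highest in SN, Vim has high libraries at 269.7 and 176 cpm in Nestin-Cre SN WT, and Serpina3n libraries lie far apart within groups.

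Serpina3n varied widely within groups. In Nestin-Cre PFC it ranged from 15.1 to 186 cpm in WT (median 169.5) and from 13.6 to 172 in HET (median 86.3), and the 4 HOM libraries stood at 12.8, 80.6, 84.1 and 94.3 cpm. The groups overlapped, at log2 fold changes of -0.69 for HET (SE 0.57, adjusted p 0.751) and -0.87 for HOM (SE 0.67, adjusted p 0.751). Without HOM mouse M4393 the HOM value was -0.54 (adjusted p 0.859), and it ran from -1.06 to -0.54 with each HOM library left out in turn. A likelihood ratio test on the trended dispersion alone, which leaves out the gene's own spread, gave adjusted p of 1.01e-15 and 6.90e-18 for the same values.

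The level followed the mouse. Over the 40 PFC libraries 6 lay between 12.8 and 19.9 cpm, 17 between 80.6 and 102 and 17 between 151 and 197, with none between these ranges, which were set on the PFC values at their widest gaps. Mice of the low PFC range had 23.2 to 39.6 cpm in SN (5 libraries) and 5.62 to 14.1 in STR (5). Mice of the middle range had 79.2 to 152 cpm in SN (17 libraries) and 28.9 to 59.4 in STR (16). Mice of the high range had 174 to 268 cpm in SN (16 libraries) and 62.5 to 116 in STR (16). Among these mice the order of the ranges was kept without overlap in both other regions. The 3 mice without a PFC library were placed in no range and stood at 90.9 to 154 cpm in SN and 36.8 to 42.5 in STR, where the highest SN value lay between the middle and the high range.

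The low range held 2 WT, 2 HET and 1 HOM mouse of the Nestin-Cre model and 1 HET mouse of the AAV-Cre model. The middle range held 1 WT, 3 HET and 3 HOM Nestin-Cre mice, and 3 WT, 1 HET and 6 HOM AAV-Cre mice. The high range held 5 WT and 1 HET Nestin-Cre mice, and 4 WT, 5 HET and 2 HOM AAV-Cre mice, by the label of the PFC library. The ranges are a description of these mice, and no test was made on them. M4575, the mouse with conflicting labels, stood in the high range.

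After group means were removed, the share of variance of log2 levels that lay between mice was 94.3% for Serpina3n in the Nestin-Cre model (20 mice with 55 libraries) and 95.9% in the AAV-Cre model (22 mice with 65 libraries). Among all genes these were places 8 of 13455 and 13 of 13588, where the median gene had 25.6% and 14.4%. The next genes of the set were Kcnj10 in Nestin-Cre (71.1%) and F3, the tissue factor of coagulation, in AAV-Cre mice (67.9%). Gfap had 24.1% and 26.6%. Serpina3m (chr12:104387164-104394257, mm10), a neighbour of Serpina3n (chr12:104406708-104414329), had 92.2% and 92.15%. Both belong to a cluster known for closely related copies, and the split of reads between them was not measured and is uncertain.

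With mouse as a block, Serpina3n was called in comparisons between regions where it had not been. SN against PFC stood at 0.31 in Nestin-Cre and 0.20 in AAV-Cre WT mice without the block, where leaving out single WT libraries gave 0.14 to 0.53 and 0.12 to 0.31, and at 0.43 (adjusted p 9.35e-04) and 0.22 (adjusted p 0.0356) with it. The model difference in STR exceeded that in PFC by 0.42 (adjusted p 0.0336) and that in SN by 0.63 (adjusted p 0.00223) with the block, against 0.44 and 0.56 without it, which were not called and ran from 0.21 to 0.63 and from 0.32 to 0.78 with single libraries left out.

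**Figure D5:**
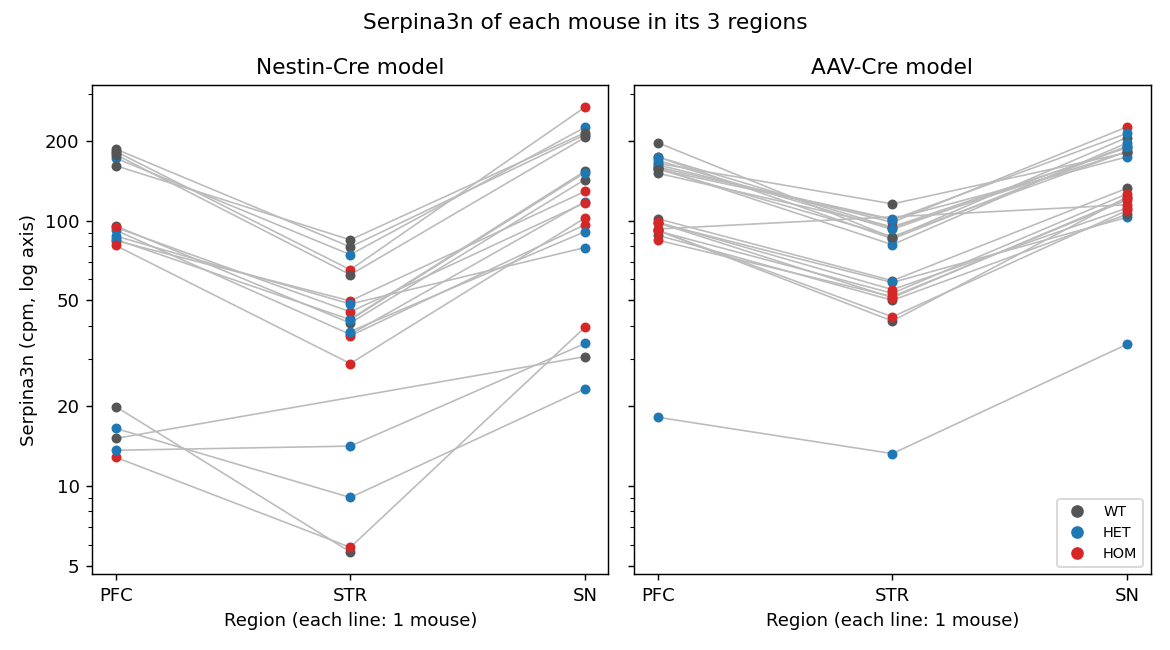
Level of Serpina3n, in cpm on a log axis, in the regions of each mouse of the Nestin-Cre (left) and AAV-Cre (right) models, with 1 line per mouse and points coloured by the genotype label of the library. The lines run at separate heights, and the lowest mice reach at most 39.6 cpm.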

How the data were processed

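RNA was measured in 121 stranded poly(A) libraries read as 75-base single ends. The authors deposited raw gene counts, made against mouse build mm10. The submitters' processing notes name bcl2fastq 2.20.0.422, STAR 2.5.2b and featureCounts 1.5.1. Libraries held 9869584 to 26750905 counts (median 17885830), and 6 genes without a symbol were not named. No value column was left unused.

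The 32 genes and all other lists were chosen with earlier results of these data known. Groups follow the labels of each library. Counts were tested with edgeR 4.0.16 (R 4.3.3, TMM scaling, quasi-likelihood test on the trended dispersion), on genes that reached 1 cpm in 3 or more libraries, and p-values were adjusted over all genes tested by Benjamini-Hochberg at 0.1. Standard errors are the log2 fold change divided by the root of F. Genotypes were fitted within each model and region, regions and models over the 41 WT libraries, and differences of effects as interactions. Levels are cpm with TMM over all 121 libraries, and the index uses a pseudocount of 0.5 cpm. Mice are separate animals, but several libraries of a mouse share it.

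The 32 genes were named by role, with full statistics for the 3 largest called rises and falls of a comparison. Genes of other lists were named as the 3 largest calls. The labels tie libraries to a mouse, so mouse was tried as a replicate block. The median share of variance between mice over all genes was 25.6% for Nestin-Cre and 14.4% for AAV-Cre. Alternatives were DESeq2 1.42.0, its size factors in edgeR, no filter, a likelihood ratio test, an adjusted p under 0.05, only the 2 genotypes compared, other pseudocounts, an index without Gfap, Vim and Serpina3n, omission of M4575 and of single HOM libraries. Leaving out each WT or PFC library, the pairs M4329 with M4394 and M3585 with M3588, the contrasts in HET and HOM mice and the shares between mice were chosen after seeing the data. The fits were tested on simulated data, of which no result is given or used here.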

Additional observations from a re-analysis of the deposited data

Results flagged for a closer look

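Each of the 18 groups, of 4 to 8 libraries, was tested for a library far from the rest in Gfap, Vim, Serpina3n and the astrocyte index, 72 tests in all, at a nominal rate of 1 in 20. For Serpina3n this rate may not hold, since its level followed the mouse in separate ranges and its tests in different regions are not independent. Gfap stood at 594.8 cpm in Nestin-Cre SN HOM M4627, and Vim at 19.99 cpm in Nestin-Cre STR WT M4545. Serpina3n stood low in Nestin-Cre PFC HOM M4393 (12.81 cpm), STR WT M4326 (5.624 cpm), STR HOM M4393 (5.857 cpm) and SN WT M4329 (30.71 cpm). In the AAV-Cre HET groups it stood low in M3750 in PFC (18.13 cpm), STR (13.22 cpm) and SN (34.17 cpm).

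Differences of effects that passed the interaction test in edgeR are named here by size. The WT model difference of STR over PFC was 1.18 for Gfap, -0.65 for Btbd17, -0.49 for Id4 and -0.44 for Aldoc. The call of Btbd17 was lost without PFC library M3588 or STR library M4326. For STR over SN it was 1.92 for Gfap, 1.61 for Vim and 0.92 for Agt. For SN over PFC it was -1.37 for Vim, -0.96 for Cldn10, -0.84 for Clu and -0.74 for Gfap. The call of Gfap was lost without SN library M4529 (-0.57). The call of Vim was lost without the SN libraries of M4329 and M4394, an omission that also lowered Vim for STR over SN. The model difference of the PFC HET effect was -0.50 for Gja1, -0.49 for Cldn10 and -0.27 for Clu, and that of the HOM effect was -0.39 for Cldn10.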

How the results depend on the processing

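The 32 genes gave 760 alternative counts within 1.5 times the reported ones and 25 outside. With the share of all genes called by the same test in parentheses, a likelihood ratio test called 3 genes in Nestin-Cre PFC HET (2.88%), 1 in PFC HOM (2.15%), 6 in STR HET (8.57%), 1 in STR HOM (1.91%) and 3 in SN HET (2.23%), and 3 in AAV-Cre PFC HET (1.70%), 5 in PFC HOM (2.93%), 2 in STR HOM (1.19%), 1 in SN HET (2.19%) and 1 in SN HOM (1.47%). DESeq2 called 1 in Nestin-Cre STR HET (3.69%), 1 in AAV-Cre PFC HET (0.221%), 4 in AAV-Cre PFC HOM (6.77%) and 1 for the model difference of the STR HET effect (4.62%). At an adjusted p under 0.05 the model difference of the PFC effect was called for 1 gene in HET (0.102%) and 0 in HOM (221 of 14757 genes). The cause was not tested. Leaving out single libraries gave counts of 20 to 22, 30 to 30 and 31 to 32 for Nestin-Cre STR against PFC, SN against PFC and SN against STR, and 12 to 17, 20 to 24 and 27 to 28 for AAV-Cre. It gave 20 to 24, 14 to 21 and 16 to 19 for the models in PFC, STR and SN, 6 to 11, 12 to 17 and 15 to 22 for model by region (STR over PFC, STR over SN, SN over PFC), and 0 to 4 and 0 to 2 for the model difference of the PFC HET and HOM effects.

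With mouse as replicate block the counts were 23, 31 and 32 for Nestin-Cre STR against PFC, SN against PFC and SN against STR, 16, 24 and 28 for AAV-Cre, and 12, 16 and 18 for model by region, against 22, 30, 32, 15, 22, 27, 8, 14 and 19 without it, and 0 for genotype by region. The shares of all genes called were 70.1%, 80.2%, 79.5%, 65.6%, 74.0%, 75.5%, 30.6%, 37.2% and 46.4% with the block, in the same order, and 0 to 0.0134% for genotype by region, against 70.3%, 80.3%, 78.5%, 61.3%, 70.5%, 72.1%, 29.4%, 34.0% and 45.0% without it. Vim reversed under the block, uncalled, to 0.0512 for Nestin-Cre STR against PFC, -0.0033 for model by region STR over PFC, and -0.0075 and -0.20 for the Nestin-Cre HET and HOM effects of STR over PFC.

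Of single values 4752 kept direction and side of the threshold, 22 passed it, 64 lost it and 27 reversed. Vim reversed to -0.0456 for AAV-Cre STR against PFC without M3585 and M3588 (-0.0206 to 0.0926 with single libraries left out) and to 0.0361 for the models in SN without M4329 and M4394. Serpina3n for the models in SN reversed to -0.0015 in DESeq2, -0.0020 without the filter, -0.0013 with DESeq2's size factors and -0.16 without M4329 and M4394. Single libraries left out gave -0.21 to 0.11 for it, -0.33 to 0.0565 for SN over PFC and -0.0471 to 0.23 for the models in PFC. They gave -0.0086 to 0.15 for Gfap between models in PFC, and -0.0785 to 0.15 for Gfap and -0.0516 to 0.0804 for Vim in Nestin-Cre PFC HOM. Apart from Vim between models in SN, these were not called.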
